A study of Zea mays with 2 samples.

Results

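Histones are the proteins that package DNA in the nucleus. Of 33283 maize genes measured in both libraries, 74 are described in the deposited tables as a core or linker histone. They were chosen by the words of their descriptions (histone H1, H2A, H2B, H3 or H4), leaving out enzymes that modify histones, and no expression value was used. By the described class, 8 were H1, 18 H2A, 15 H2B, 18 H3 and 15 H4. The RNA came from maize (Zea mays) endosperm, the storage tissue of the kernel, taken at 15 days after pollination. One group was wild type, and the other was dek33, a mutant with defective kernels. The study describes a triplicate design, but the files hold 1 value per gene and genotype, so no difference here has a replicate check or a p-value. No strain background, dek33 allele or scheme for pooling the triplicates is given in the sources used here.

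A nucleosome is DNA wound around an octamer of the core histones H2A, H2B, H3 and H4, and the linker histone H1 binds the DNA where it enters and leaves. Most core histone genes are transcribed in S phase, when newly copied DNA has to be packaged, while replacement variants are made outside S phase as well. In maize endosperm, cells of the central region move from mitotic division to endoreduplication, in which DNA is copied without cell division, so S phase continues after division has ended. Plant genomes hold many histone gene copies that encode the same protein.

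Values are FPKM (fragments counted per transcript length and per mapped fragments of the library), a scale per length on which levels of different genes can be set side by side. Folds and log2 ratios compare FPKM + 1 in dek33 with FPKM + 1 in wild type. The size rule called a gene higher or lower where this fold reached 2 and where either library had 5 FPKM or more. All genes together held 761571 FPKM in dek33 and 672660 in wild type, and their read numbers are unknown. Over the 21688 genes that reached 1 FPKM in either library the median log2 ratio was 0.44 (1.36-fold), so most genes were higher in dek33. Centred ratios have this median subtracted. PyrR (GRMZM2G090068), the riboflavin synthesis gene known to be mutated in dek33, had 6.44 FPKM in dek33 and 4.55 in wild type, which does not check the labels because a mutant transcript can persist.

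The labelled tissue was checked on marker genes. The endosperm list held 23 genes, mostly zeins, with opaque-2 and granule-bound starch synthase 1 among them. They summed to 130460 FPKM in dek33 and 214237 in wild type. Of the 22 with at least 5 FPKM in either library, 13 were lower and 3 higher (15 and 3 after centring). Those 3 alpha zeins were listed at 0 in wild type. Among all genes at that level 4.02% were lower and 14.8% higher (6.79% and 4.40% after centring). The 11 genes of the embryo and scutellum list (oleosins, globulins and EMB564) summed to 2198 FPKM in dek33 and 12313 in wild type. Of these 10 were lower, 0 higher and none listed at 0. Single genes ran from 1.33 to 1605 in dek33 and from 42.9 to 3482 in wild type. Most of the dek33 sum came from 1 gene described as an alpha globulin (GRMZM2G410134), with 1605 in dek33 and 3025 in wild type. Before centring it was the 1 gene not called lower, and its description names no tissue. The 9 basal transfer layer markers summed to 190 and 376 FPKM, with none listed at 0. Only 4 of them reached 5 FPKM, of which 1 was lower and 0 higher (4 and 0 after centring). Green tissue and pericarp markers, 18 genes, summed to 6.92 and 4.24 FPKM, and 2 of them were listed at 0 in wild type. Genes of the embryo and scutellum list were thus lower in dek33 where histones were higher. Whether their RNA came from embryo tissue, and their part in the histone differences, was not tested. In bulk tissue, fewer cells of a type and less RNA per cell cannot be told apart.

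Nearly every histone gene copy was more abundant in dek33 than in wild type. Of the 74 members, 72 (97.3%) had a higher value in dek33 than in wild type, against 71.7% of all 33283 genes. By the size rule 49 were higher, 2 lower and 21 neither, and 2 H2A genes stayed under the minimum level. Among all 14348 genes at that level, 14.8% were higher and 4.02% lower. After centring, 36 histone genes were higher and 2 lower, where 4.40% of all genes were higher and 6.79% lower. The median log2 ratio of the 72 members with at least 1 FPKM was 1.46, or 2.75-fold, with an exact binomial interval over members of 1.12 to 1.63. Members are genes of 2 libraries and not replicates, so the interval concerns the median of this list and not the difference between genotypes. Nor is it the spread of the list, whose log2 ratios ran from -2.32 to 2.53. Of the 72, 66 passed the minimum in both libraries, 5 through dek33 alone and 1 through wild type alone. Those 5 were centromeric H3, which was neither, and GRMZM2G097511, GRMZM2G448458, GRMZM2G355773 and GRMZM2G376957, which were all counted as higher. Relative to the median of all genes, 67 of the 72 lay above it.

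**Figure D1:**
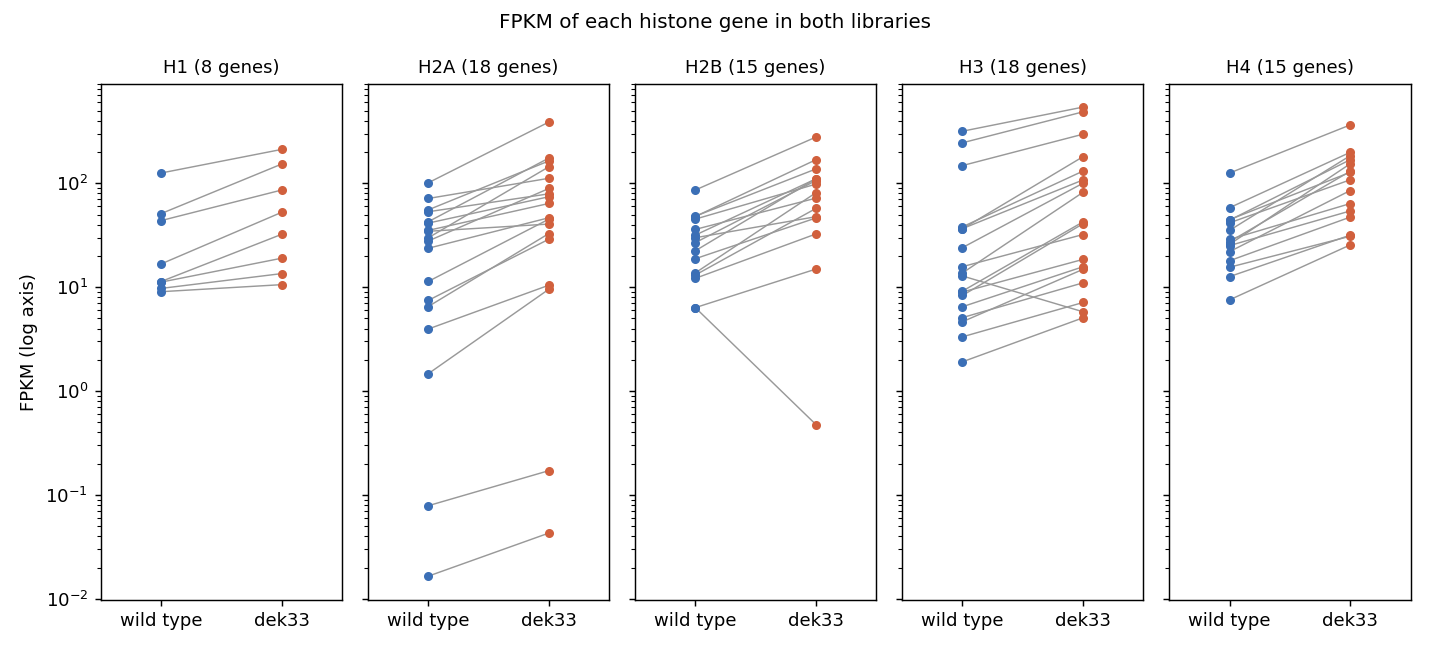
FPKM (log axis) of all 74 histone genes in the wild type library (blue) and the dek33 library (orange), 1 panel per class, with a line joining the values of each gene and 1 value per genotype. Lines slope upward for 72 genes, and the exceptions are 1 H2B gene, which drops from 6.36 to 0.476, and 1 H3 gene, which drops from 12.8 to 5.79.

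Together the histone genes made up 0.963% of all FPKM in dek33 and 0.407% in wild type. Their sum was 7334 in dek33 against 2736 in wild type, a ratio of 2.68. The order of the genes was largely the same in both libraries, with a rank correlation of 0.90 over 72 genes that share the same libraries and lengths. Expression was spread over many copies. Of the histone FPKM, 50% came from 11 genes in wild type and 14 in dek33, and the 3 highest genes held 25.9% in wild type and 19.3% in dek33.

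Of the 5 classes, H4 had the highest ratio of summed FPKM, 3.33, with 1773 in dek33 and 532 in wild type. H2B sums were 1362 and 444, a ratio of 3.06. H2A sums were 1502 and 547, a ratio of 2.75. H3 had the highest sums, 2119 and 935, with a ratio of 2.27, and H1 the smallest, 579 and 278, with a ratio of 2.08. The make-up of the histone FPKM differed accordingly. H4 held 24.2% in dek33 and 19.4% in wild type, H3 28.9% and 34.2%, H2A 20.5% and 19.98%, H2B 18.6% and 16.2%, and H1 7.89% and 10.2%. With 1 library per genotype, differences between classes could not be tested.

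**Figure D2:**
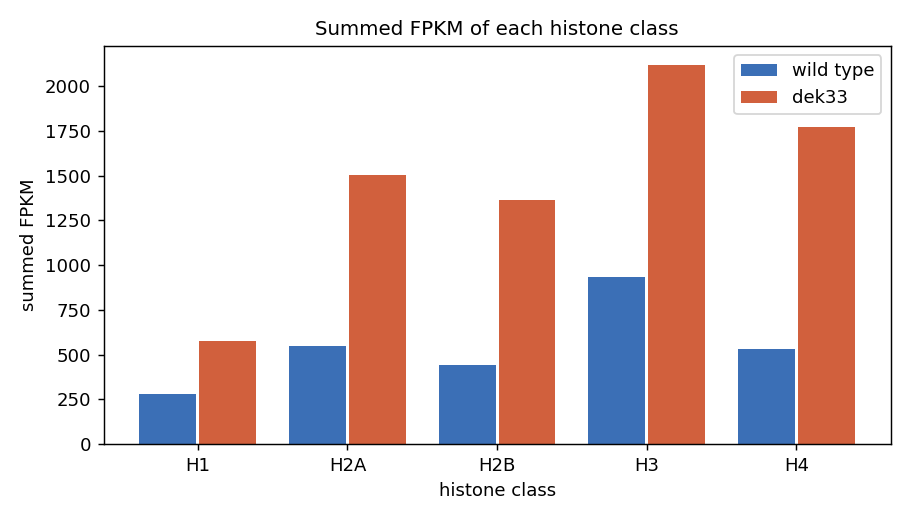
Summed FPKM of the genes of each histone class in the wild type library (blue bars) and the dek33 library (orange bars), 1 value per genotype and no error bars. All 5 dek33 bars are taller, from 2.08 times wild type in H1 to 3.33 times in H4.

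The 8 genes of the H1 class fell into 2 kinds. Linker histones proper were 5 genes, of which 3 were higher and 2 neither (2 higher after centring), with a median log2 ratio of 1.43. The other 3 are single myb histones, which RefSeq names smh1, smh2 and smh4. These carry a MYB-type DNA-binding domain beside a domain related to linker histones and are known in maize as telomere-binding proteins. None of the 3 differed by 2-fold, and their median log2 ratio of 0.44 lay at that of all genes. Over all 8 genes the median was 0.86, with 3 higher and 0 lower (2 and 0 after centring).

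Among linker histones, hon101 (GRMZM2G080274, chromosome 2, 16047725 to 16049837 in B73 RefGen_v3, as are all coordinates here) was the most abundant in both libraries. It had 212 FPKM in dek33 and 125 in wild type, 1.68-fold higher. The next, hon110 (GRMZM2G164020), had 153 and 51.0, 2.96-fold higher, and GRMZM2G069911 had 86.1 and 43.7, which is 1.95-fold and short of the limit. The remaining pair lies close together on chromosome 5. The gene his1 (GRMZM2G003002, 4101244 to 4102794) had 52.5 and 16.7 FPKM, a 3.02-fold difference and the largest of the class. GRMZM2G121221 (4038837 to 4040693) had 32.3 and 11.3, 2.70-fold higher. The smallest folds among linker histones were thus those of hon101 and GRMZM2G069911, both among the more abundant in wild type. However, hon110 had more wild type FPKM than GRMZM2G069911 and a larger fold. Over 72 histone genes the rank correlation of log2 ratio with mean log2 FPKM was 0.20. Single myb histones were lower in level. SMH2 (GRMZM2G087817) had 19.0 FPKM in dek33 and 11.2 in wild type, SMH1 (GRMZM2G136887) 13.5 and 9.72, and smh4 (GRMZM2G108424) 10.6 and 9.04, the smallest difference of the class at 1.15-fold.

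H2A pairs with H2B in the nucleosome and is the core histone with the widest range of variants in plants. The descriptions name all 18 H2A genes simply as histone H2A, so variants such as H2A.Z or H2A.X are not assigned here. Of the 16 H2A genes at the minimum level, 10 were higher, 0 lower and 6 neither (9 higher and 0 lower after centring), and the median log2 ratio was 1.60. The remaining genes, GRMZM2G040490 and GRMZM2G348319, had 0.171 and 0.0430 FPKM in dek33 and 0.0788 and 0.0165 in wild type.

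The gene his2a1 (GRMZM2G305046, chromosome 9, 139441605 to 139442697) was the most abundant H2A, with 388 FPKM in dek33 and 101 in wild type, 3.82-fold higher. GRMZM2G003306 had 175 and 42.6, 4.03-fold higher, and GRMZM2G046055 had 164 and 55.4, 2.92-fold higher. The 3 highest folds of the class belonged to GRMZM2G047813, at 144 against 29.8 FPKM and 4.70-fold, GRMZM2G109448, at 32.8 against 6.499 and 4.51-fold, and GRMZM2G448458, at 9.54 against 1.47 and 4.27-fold. The last passed the minimum level only through its dek33 value. These genes span low and high expression. GRMZM2G056231 had 89.0 and 27.8 FPKM, and GRMZM2G097511 had 10.4 and 3.95, both also counted as higher. GRMZM2G097511 also passed the minimum level only through dek33.

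At the other end stood H2A genes with sizeable wild type levels. GRMZM2G042047 had 40.5 FPKM in dek33 and 34.5 in wild type, 1.17-fold and below the median of all genes by 0.22 on the log2 scale. GRMZM2G130746 had 79.1 and 53.2, and GRMZM2G151726 had 112 and 71.3, the latter being the second most abundant H2A in wild type after his2a1. GRMZM2G050833 and GRMZM2G149775, annotated with the same protein entry, had 63.9 and 74.1 FPKM in dek33 and 35.2 and 41.3 in wild type, with near-equal folds of 1.79 and 1.77. The sixth gene below the limit, GRMZM5G883764, had 46.5 and 23.7, 1.93-fold.

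**Figure D3:**
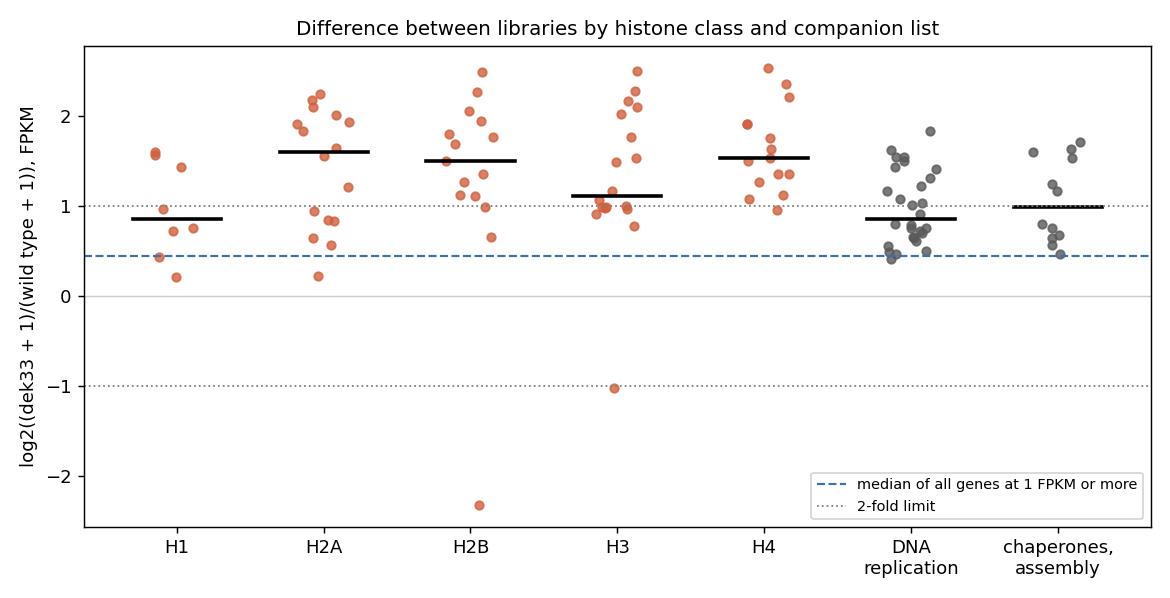
Log2 ratio of FPKM + 1, dek33 over wild type, for each histone gene with at least 1 FPKM in 1 or both libraries (orange points), by class, and for 2 companion lists (grey points). Black bars are medians, the dashed line is the median of all genes (0.44) and dotted lines mark 2-fold. Class medians run from 0.86 in H1 to 1.60 in H2A.

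H2B, the partner of H2A, had 12 of 15 genes higher, 1 lower and 2 neither, with a median log2 ratio of 1.49 (8 higher and 1 lower after centring). The 5 genes that the descriptions number as H2B.1 to H2B.5 were all higher, and 3 of them, without H2B.3 and H2B.4, after centring. H2B.1 (GRMZM2G071959, chromosome 7, 119943268 to 119944091), the most abundant of the class, had 278 FPKM in dek33 and 86.1 in wild type, 3.21-fold higher. H2B.5 (GRMZM2G342515) had 81.1 and 13.7 and the highest fold of the class, 5.58, and H2B.2 (GRMZM2G119071) followed with 111 and 22.4, 4.79-fold. H2B.3 (GRMZM2G057852) had 14.9 and 6.35, and H2B.4 (GRMZM2G306258) had 32.5 and 12.2. Numbered genes thus differed among themselves from 2.17-fold to 5.58-fold.

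Of the 10 H2B genes without a number, 7 were higher. GRMZM2G401147 had 168 FPKM in dek33 and 47.8 in wild type, GRMZM2G163939 137 and 48.2, and GRMZM2G112912 57.2 and 13.1, the last 4.14-fold higher. GRMZM2G304575 and GRMZM2G472696 were close to each other, with 106 and 110.2 FPKM in dek33 and 26.8 and 31.7 in wild type. GRMZM2G141432 reached 71.9 and 35.9, 1.97-fold, and GRMZM2G046841 had 47.7 and 29.9, 1.57-fold. GRMZM2G442555 (chromosome 2, 165492844 to 165493884) went the other way. It had 0.476 FPKM in dek33 and 6.36 in wild type, 4.98-fold lower on the FPKM + 1 scale, and passed the minimum level only through wild type. It was the lowest H2B gene in dek33, where each of the other 14 had at least 14.9 FPKM. GRMZM2G401147 and H2B.4 each share a printed locus with another gene, whose own values stayed below 1 FPKM.

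H3 carries the tail residues whose modification marks active and silent chromatin. Its 18 genes are described here by variant name and shared protein entry, a grouping chosen after the values were seen. By the size rule 10 were higher, 1 lower and 7 neither (8 higher and 1 lower after centring), and the class median log2 ratio was 1.11.

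The most abundant histone genes of all belonged to 4 H3 genes that share 1 protein entry. GRMZM2G171387 (chromosome 6, 65095742 to 65096843) ranked first in both libraries, with 541 FPKM in dek33 and 317 in wild type, 1.71-fold higher. GRMZM2G051879 (chromosome 1, 67652509 to 67655143) had 487 and 245, 1.98-fold higher. GRMZM2G118355 (chromosome 9, 23748488 to 23750278) had 297 and 148, just under the 2-fold limit. The fourth gene, GRMZM2G176358 (chromosome 5, 175696565 to 175700974), had 5.79 in dek33 and 12.8 in wild type, 2.03-fold lower and just past the limit. None of the 4 was counted as higher, except GRMZM2G118355 where the pseudocount was 0.1. Their sum was 1330 in dek33 and 723 in wild type, a ratio of 1.84, and they held 62.8% of H3 FPKM in dek33 and 77.3% in wild type.

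The 9 genes described as H3.2, the name of a replication-coupled H3 in animals, share another protein entry. Of these 7 were higher, 0 lower and 2 neither (5 higher after centring), with a median log2 ratio of 1.49. Their sum was 370 FPKM in dek33 and 112 in wild type, a ratio of 3.305, and their share of H3 FPKM was 17.5% and 11.97%. GRMZM2G401581 had 40.8 and 8.31, 4.49-fold higher and the third highest fold of the class. GRMZM2G130079, the most abundant H3.2 gene, had 108 and 36.6, and GRMZM5G864735 had 100.1 and 24.0. GRMZM2G447984 had 42.5 and 9.16, 4.28-fold higher. Lower in level were GRMZM2G179005, with 15.7 and 6.48, and GRMZM2G355773, with 14.9 and 4.65. The pair not counted as higher, GRMZM2G418258 and GRMZM2G475899, had 32.1 and 11.01 FPKM in dek33 against 15.8 and 5.09, folds of 1.98 and 1.97. GRMZM2G376957 lay just inside the limit, with 5.07 and 1.91 FPKM and 2.09-fold. Both GRMZM2G376957 and GRMZM2G355773 passed the minimum level only through dek33.

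Higher folds came from H3 genes of other entries. GRMZM2G451254 had 81.9 FPKM in dek33 and 13.7 in wild type, 5.64-fold, and GRMZM2G387076 with the same entry had 131 and 38.1, 3.38-fold. GRMZM2G078314 had 180.2 and 36.4, 4.84-fold, while GRMZM2G145758 had 18.5 and 8.97, 1.96-fold. The 13 H3 genes outside the abundant group of 4 and the centromeric variant had a ratio of sums of 3.74, against 1.84 for the group of 4. Centromeric H3 (CENH3, GRMZM2G158526, chromosome 6, 155443675 to 155448220), the variant that replaces H3 in centromeric nucleosomes, had 7.12 FPKM in dek33 and 3.33 in wild type, 1.88-fold and not counted as higher, although it was with a pseudocount of 0.1.

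**Figure D4:**
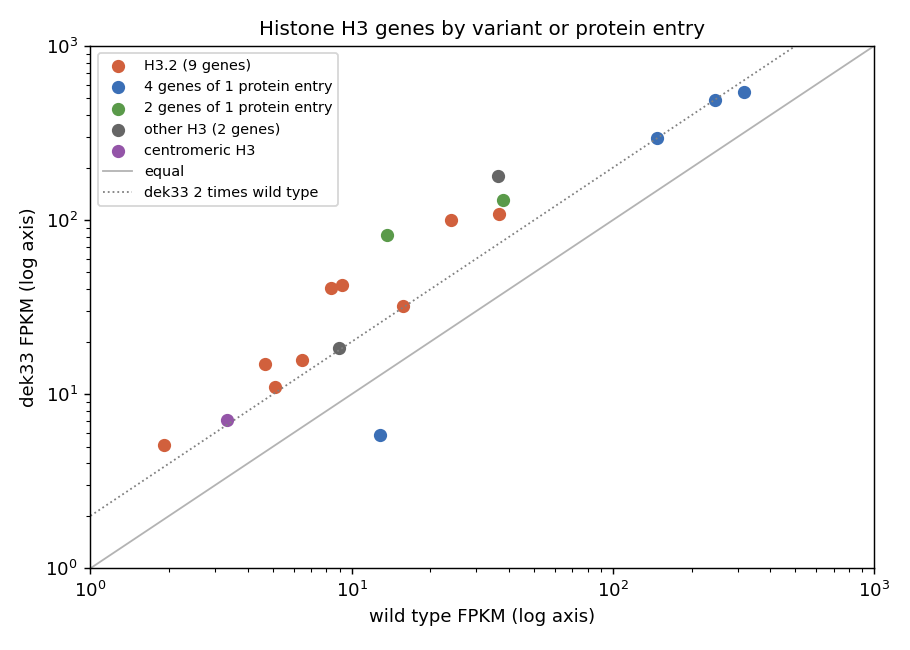
FPKM of the 18 H3 genes in wild type (horizontal, log axis) and dek33 (vertical, log axis), coloured by variant name or shared protein entry. The solid line marks equal FPKM and the dotted line 2 times wild type, without a pseudocount. The 3 highest points, of the 4-gene entry, lie on or below the dotted line, while the 9 H3.2 genes lie on or above it.

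H4 is among the most conserved proteins known, and all 15 genes carry the same protein entry. By the size rule 14 were higher, 0 lower and 1 neither, with a median log2 ratio of 1.53 (9 higher and 0 lower after centring). Wild type levels ran from 7.55 to 125 FPKM and dek33 levels from 25.5 to 364. GRMZM2G421279 (chromosome 2, 14732307 to 14733163) was the most abundant, with 364 in dek33 and 125 in wild type, 2.89-fold higher. AC212565.3_FG001 had 198 and 58.1, 3.37-fold higher. GRMZM2G016232 had 168 and 44.1, 3.76-fold higher, and GRMZM2G181153 had 85.0 and 21.97, 3.75-fold higher. AC233865.1_FG001, with 127 and 44.7 FPKM, and GRMZM2G479684, with 108 and 41.6, differed by 2.81-fold and 2.56-fold. The lowest H4 genes in wild type, GRMZM2G349651 and AC196961.2_FG003, had 25.5 and 31.7 FPKM in dek33 against 7.55 and 12.6.

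GRMZM2G073275 (chromosome 7, 119991341 to 119992231) had the highest fold of all 74 histone genes, 5.77, with 154 FPKM in dek33 and 25.8 in wild type. GRMZM2G084195 had 184 and 35.2, 5.11-fold higher, and GRMZM2G332838 had 130.3 and 27.4, 4.62-fold higher. The smallest folds of the class belonged to GRMZM2G063896, with 30.9 and 15.5 FPKM and 1.93-fold, GRMZM2G143780, with 54.1 and 25.1 and 2.11-fold, and GRMZM2G149178, with 63.7 and 28.8 and 2.18-fold. Genes annotated with an identical protein therefore spanned folds from 1.93 to 5.77. Copies with the same or nearly the same sequence can exchange reads, so single values of H4 genes are uncertain. Across all classes 32 members share 1 of 5 protein entries.

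Position was compared by setting each member beside the next member on its chromosome where that lay within 50 kb, a distance chosen after the data were seen. This gave 6 neighbouring pairs on chromosomes 2, 3, 7 and 9, with GRMZM2G072855 in 2 of them. All neighbours had higher FPKM in dek33, but by unequal amounts. The closest pair, H2A genes GRMZM2G041381 and GRMZM2G042047 on chromosome 7, lies 412 bp apart, and their log2 ratios were 1.82 and 0.23. GRMZM2G041381 had 28.9 FPKM in dek33 and 7.45 in wild type. H2A genes GRMZM2G151826 and GRMZM2G151726 on chromosome 2 lie 1427 bp apart, with log2 ratios of 1.902 and 0.64, and the first had 45.1 and 11.3 FPKM. On chromosome 9, his2a1 and the H2B gene GRMZM2G305027 lie 3050 bp apart, with log2 ratios of 1.93 and 1.26, and GRMZM2G305027 had 46.3 and 18.8 FPKM.

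On chromosome 7, H2B.1 and the H4 genes GRMZM2G072855 and GRMZM2G073275 follow each other. GRMZM2G072855 had 47.2 FPKM in dek33 and 17.96 in wild type. Log2 ratios in that order were 1.68, 1.35 and 2.53. The pair on chromosome 3, the H2A gene GRMZM2G047813 and the H2B gene GRMZM2G079089 (98.2 and 45.2 FPKM), lies 40.9 kb apart with no gene listed between, and had log2 ratios of 2.23 and 1.10. Whether neighbours were more alike than distant members was not tested.

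**Figure D5:**
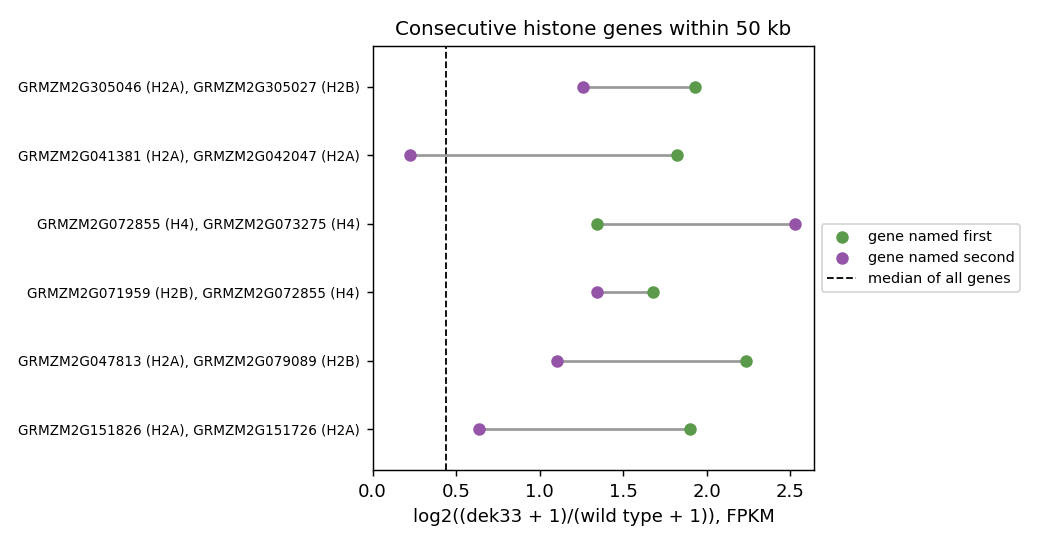
Log2 ratio of FPKM + 1, dek33 over wild type, for the 6 pairs of consecutive histone genes on a chromosome that lie within 50 kb, the first named gene in green and the second in purple, 1 value per genotype. The dashed line is the median of all genes, 0.44. Differences within pairs run from 0.33 to 1.60 on the log2 scale.

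Genes that work with histones were described from word lists. DNA replication genes, which act in the same phase of the cell cycle, numbered 28. Of the 21 at the minimum level 10 were higher, 0 lower and 11 neither (5 higher and 0 lower after centring). That is 47.6% higher (23.8% after centring), against 14.8% (4.40%) of all genes at that level. Some of the 10 passed the minimum level only through dek33. They were GRMZM2G030523 (13.8 and 4.27 FPKM in dek33 and wild type), GRMZM2G100639 (10.4 and 4.43) and GRMZM5G825512 (11.6 and 3.69). The median log2 ratio of the 28 genes was 0.85. Replication protein A 70 kDa subunit (GRMZM2G086934), which coats single-stranded DNA, had 36.8 FPKM in dek33 and 9.67 in wild type, and DNA primase (GRMZM6G314950), which lays down primers, 24.4 and 7.30. Replication factor A (GRMZM2G175177) had 48.3 and 15.9, and replication factor C subunit 2 (GRMZM2G103740), part of the loader of the sliding clamp, 37.8 and 21.5. A bifunctional dihydrofolate reductase-thymidylate synthase (GRMZM2G005990) had 24.9 and 17.4, and MCM10 (GRMZM2G133819), a factor of replication initiation, 5.19 and 3.49.

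Of the 12 genes for histone chaperones and nucleosome assembly, 6 were higher, 0 lower and 6 neither (4 higher and 0 lower after centring). The median log2 ratio was 0.98. These shares, 50% higher and 33.3% after centring, stand beside 14.8% and 4.40% of all genes at the minimum level. Some genes counted as higher passed that level only through dek33. They were GRMZM2G009627 (11.2 and 4.45 FPKM in dek33 and wild type), GRMZM2G032711 (9.40 and 2.61) and GRMZM2G057369 (9.34 and 3.37). A nucleosome/chromatin assembly factor group A gene (GRMZM2G176707) had 36.3 FPKM in dek33 and 10.4 in wild type, and an HMG-type factor D gene (GRMZM2G125648) 30.9 and 9.35. The most abundant, assembly factor A (GRMZM2G157019), had 57.1 and 36.2, and a group C gene (GRMZM2G137965) 40.1 and 23.4. Both subunits of FACT, which moves H2A and H2B out of the way of polymerases, had the smallest ratios. SSRP1 (GRMZM2G032252) had 31.4 and 22.5, and SPT16 (GRMZM5G806358) 24.2 and 16.1.

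The list of mitotic cyclins and kinases held 8 genes, 5 of them at the minimum level. Of these 1 was higher, 0 lower and 4 neither (0 higher and 1 lower after centring). That 1 higher gene, MAD2, is 20% of the 5, near the 14.8% of all genes, and it passed the minimum level through dek33 alone. The median log2 ratio of the list, 0.55 over 7 genes with at least 1 FPKM, lay near that of all genes. It was the value of the calcyclin-binding protein named below. Both Cyclin-A2 genes (GRMZM2G060690 and GRMZM5G879536) and an aurora-related kinase stayed under the minimum level, so no mitotic cyclin entered the counts. The checkpoint gene MAD2 (GRMZM2G047143) had 8.42 FPKM in dek33 and 3.15 in wild type, while BUB3 (GRMZM5G899300), of the same checkpoint, had 7.69 and 11.8. A CDC2-related kinase (GRMZM2G149286) had 36.8 and 24.4, and a kinesin heavy chain-like gene (GRMZM2G385925) 11.9 and 8.50. The words of this list also took in a calcyclin-binding protein (GRMZM2G324886, 49.4 and 33.3), which is no cyclin. The medians of these lists, 0.55 to 0.98, stand beside 1.46 for the histones, and whether they differ was not tested.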

How the data were processed

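Each genotype has 1 FPKM value per gene, deposited by the authors, with 1e-05 written for 0. Bowtie 0.12.2 was used, per the submitters' processing notes, which also name B73 RefGen_v3. No program behind FPKM, handling of reads with several matches, annotation release or pooling of triplicates is given in the sources used here. Depth is unknown, so no counting interval is given. No histone gene was listed at 0 in either library.

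Members were found by their descriptions, and 47 of 74 matched a RefSeq gene (NAM-5.0, used for names only). Starts were raised by 1, since this makes the length of 77.9% of 610 short models a multiple of 3, against 10.7% as printed. Log2 ratios used a pseudocount of 1. Samples were grouped by their genotype label, and no test was possible. In each class the 3 most abundant genes and the 3 highest and 3 lowest ratios are named, with CENH3 and the genes nearest the limit. Companion lists name 2 of each. Others were named after their values were seen. The members, lists and alternatives were chosen with earlier results of these data known. Alternatives were other pseudocounts, minimum levels, limits and scalings, and leaving out members. Planned comparisons of promoters and proteins were not run, because no sequences were used here. The procedure was tested on simulated data with changes larger than the limit, low noise and the known library factor divided out. Such data do not check calls on unscaled values near the 2-fold limit. The software was matplotlib 3.10.9, scipy 1.17.1, pandas 2.3.3 and numpy 2.4.6 under Python 3.11.15.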

Additional observations from a re-analysis of the deposited data

How the results depend on the processing

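The count of 49 higher genes was 36 when centred, with a trimmed mean (of M values, leaving out 30% at each end, and 5% for A), with the upper quartile and with equal totals without zeins, 15 at a 4-fold limit, 54 and 44 with pseudocounts of 0.1 and 5, and 43 with a minimum of 20 FPKM. The share of all genes called higher was computed only for the main setting (14.8%) and after centring (4.40%). Losses with a minimum of 20 FPKM, here and below, are genes dropped from the count with unchanged ratios. Of the 21 genes neither higher nor lower, 9 had folds from 1.9 to 2. The 2 lower genes became 1 with a pseudocount of 5 or a 4-fold limit and 0 with a minimum of 20 FPKM. In the order centred, trimmed mean, upper quartile and without zeins, the median log2 ratio of 1.46 became 1.02, 1.00, 0.98 and 1.01. For H2B it became 1.05, 1.02, 1.01 and 1.04, for H3 0.67, 0.70, 0.68 and 0.71, and for H4 1.09, 1.06, 1.04 and 1.08. The H1 median of 0.86 became 0.42, 0.39, 0.37 and 0.404, and that of H2A, 1.60, became 1.16, 1.13, 1.11 and 1.14. Their intervals over members (0.20 to 1.60 and 0.83 to 2.01) are wide, so lying inside them does not show that these medians held. Centring takes 1.36-fold off the ratio. The trimmed mean, upper quartile and equal totals without zeins divide dek33 FPKM by 1.39, 1.404 and 1.37. With a pseudocount of 5 the H3 median was 0.98. The ratio of summed FPKM, 2.68, was 1.93 by trimmed mean, 1.95 without zeins and 2.69 without single myb histones, which raised the H1 median from 0.86 to 1.43 (leaving these out was chosen after seeing the data). Of the 43 histone genes named by the rule 0 with a call changed direction, which no setting here could have produced. The scalings shift ratios by less than the 2-fold limit, and the other settings keep the sign. Of the 43 genes, 4 lost their call under each scaling and with a minimum of 20 FPKM. With a pseudocount of 5, 3 lost it, and at a 4-fold limit 14. With a pseudocount of 0.1, 2 gained a call. Other genes were not followed singly. No paired analysis was possible because there is 1 sample per genotype.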

Other observations

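Some genes related to histones lay outside the words that chose the members and were looked up after the data were seen. The linker histone his1a or hon102 (GRMZM2G401308), described in the tables as uncharacterized, had 188 FPKM in dek33 and 99.4 in wild type, a 1.88-fold difference. It would have been the second most abundant H1 gene in both libraries. RefSeq names mark 3 further genes as single myb histones. They were smh3 (GRMZM2G023667), with 18.8 and 11.1 FPKM, Smh6 (GRMZM2G095239), with 12.9 and 10.5, and GRMZM2G163291, with 5.77 and 7.17. The last carries both names, Smh5 and smh6, so these names do not separate it from GRMZM2G095239. The deposited description of smh3, a glycylpeptide N-tetradecanoyltransferase, differs from its name. None of these passed 2-fold, and GRMZM2G163291 was the only one with a lower value in dek33. A histone mRNA exonuclease gene (GRMZM2G143525) had 5.70 and 3.56 FPKM. The catalytic subunit of the type B histone acetyltransferase (GRMZM5G851405), an enzyme that acetylates newly made histones before assembly, had 4.67 and 2.55, below the minimum level.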
